A study of Sus scrofa with 2 samples.

Results

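PRMT2, ARPC1B, MAP11, CCBE1, ENSSSCG00000047796, ENSSSCG00000031657 and ENSSSCG00000051070 were 7 of the 31908 genes counted in single cells of pig skin. They were chosen from measured values of these libraries, because the ratio of the cryopreserved to the fresh library had the same direction in each cell lineage in which the gene was measured. PRMT2, CCBE1 and ENSSSCG00000047796 were lower in the cryopreserved library. ARPC1B, MAP11, ENSSSCG00000031657 and ENSSSCG00000051070 were higher. The ratios that selected the genes are therefore given as a description, with no test, and the way the level, the share of positive cells and the size of the ratio varied between lineages is described beside them.

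The cells came from dorsal skin of healthy, young male farm pigs (Sus scrofa) and were dissociated enzymatically and mechanically. Fresh cells went into 1 library (labelled treatment none), and cells that had been frozen in 90% FBS with 10% DMSO, kept in liquid nitrogen and thawed went into the other (labelled treatment frozen, called cryopreserved here). No genotype or further treatment was labelled for either group. Dead cells were removed by sorting before both 10x Genomics 3′ libraries were made, the protocol text with freezing is attached to both samples, and whether both libraries shared an animal was not given in the sources used here.

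PRMT2 is a protein arginine methyltransferase, an enzyme class that puts methyl groups on arginines of histones and other proteins. ARPC1B is a subunit of the Arp2/3 complex, which starts branched actin filaments and is used by migrating and engulfing cells, and MAP11 (also TRAPPC14) is a subunit of a TRAPP complex, a tethering factor for transport vesicles. CCBE1 is a secreted protein that helps the protease ADAMTS3 to process the lymphatic growth factor VEGFC. The other 3 genes had only an Ensembl identifier in the files and in the name tables used here, so no role is given for them.

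After the study's maxima for genes, unique molecular identifiers (UMIs) and mitochondrial share were applied, 2775 of 4379 fresh barcodes and 4223 of 4860 cryopreserved barcodes remained, with medians of 11017 and 7945 UMIs per cell. The median mitochondrial share was 3.52% and 3.49%. 5 cell barcodes occurred in both libraries. Clusters were assigned by marker genes to 9 lineages, keratinocyte-like, fibroblast-like, mural-like, blood endothelial-like, lymphatic endothelial-like, CD163/CD209 myeloid-like, Langerhans or dendritic-like, T or NK-like and mast-like, named without the suffix hereafter. The lineages held 68 to 1136 fresh cells and 82 to 1476 cryopreserved cells, and 82 fresh and 116 cryopreserved cells in 3 clusters stayed unnamed. The median cell was shallower in the cryopreserved library in every lineage, at 0.564 (lymphatic endothelial) to 0.917 (CD163/CD209 myeloid) times the fresh depth. Levels are UMIs of a gene per 1000000 UMIs of the lineage (CPM), scaled between the libraries within each lineage. With 1 library per condition there was no replicate error, and the 95% intervals cover counting error only. The median log2 ratio lay between -0.07 and 0.05 in the lineages, over genes with at least 50 UMIs there and counts in both libraries. The scaling itself brings this median near 0.

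In the whole libraries, all 7 genes differed at least 2-fold. PRMT2 had 2668 fresh and 417 cryopreserved UMIs, 81.6 and 11.5 CPM, a level 7.08-fold lower (95% interval 6.38 to 7.87). ENSSSCG00000047796 had 604 and 104 UMIs and was 6.43-fold lower (5.21 to 7.99). CCBE1 had 3195 and 1546 UMIs and was 2.29-fold lower (2.15 to 2.43). These stood at ranks 2, 3 and 18 from the lowest ratio among 11692 genes with at least 200 UMIs. In the other direction MAP11 had 82 and 363 UMIs and was 3.9995-fold higher (3.14 to 5.15), and ARPC1B had 2712 and 8309 UMIs, 2.77-fold higher (2.65 to 2.89). ENSSSCG00000051070 had 1140 and 3447 UMIs, 2.73-fold higher (2.55 to 2.92), and ENSSSCG00000031657 had 220 and 596 UMIs, 2.45-fold higher (2.09 to 2.87). No single cell held more than 2.82% of the UMIs of any of the 7 genes in a library. Over the 11692 genes, 37 (0.316%) were at least 2-fold lower and 88 (0.753%) at least 2-fold higher. These shares stand beside the 3 lower and 4 higher genes for scale only, since this contrast chose them.

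A lineage counted as measured for a gene with at least 20 UMIs over both libraries. PRMT2 and ARPC1B were measured in 9 lineages, CCBE1, ENSSSCG00000031657 and ENSSSCG00000051070 in 8, ENSSSCG00000047796 in 7 and MAP11 in 4, and every measured lineage had the direction that the rule fixed. Among 8450 genes measured in at least 5 lineages, 510 (6.04%) were lower in each measured lineage and 797 (9.43%) were higher. A shared direction alone was therefore common. A difference of at least 2-fold in each measured lineage was found for 3 genes in the lower direction (0.0355%), which were PRMT2, ENSSSCG00000047796 and the mitochondrial gene ND3, and for 1 gene in the higher direction (0.0118%), ENSSSCG00000051070. Lineages were not independent replicates, because all lineages of a condition came from the same library.

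**Figure D1:**
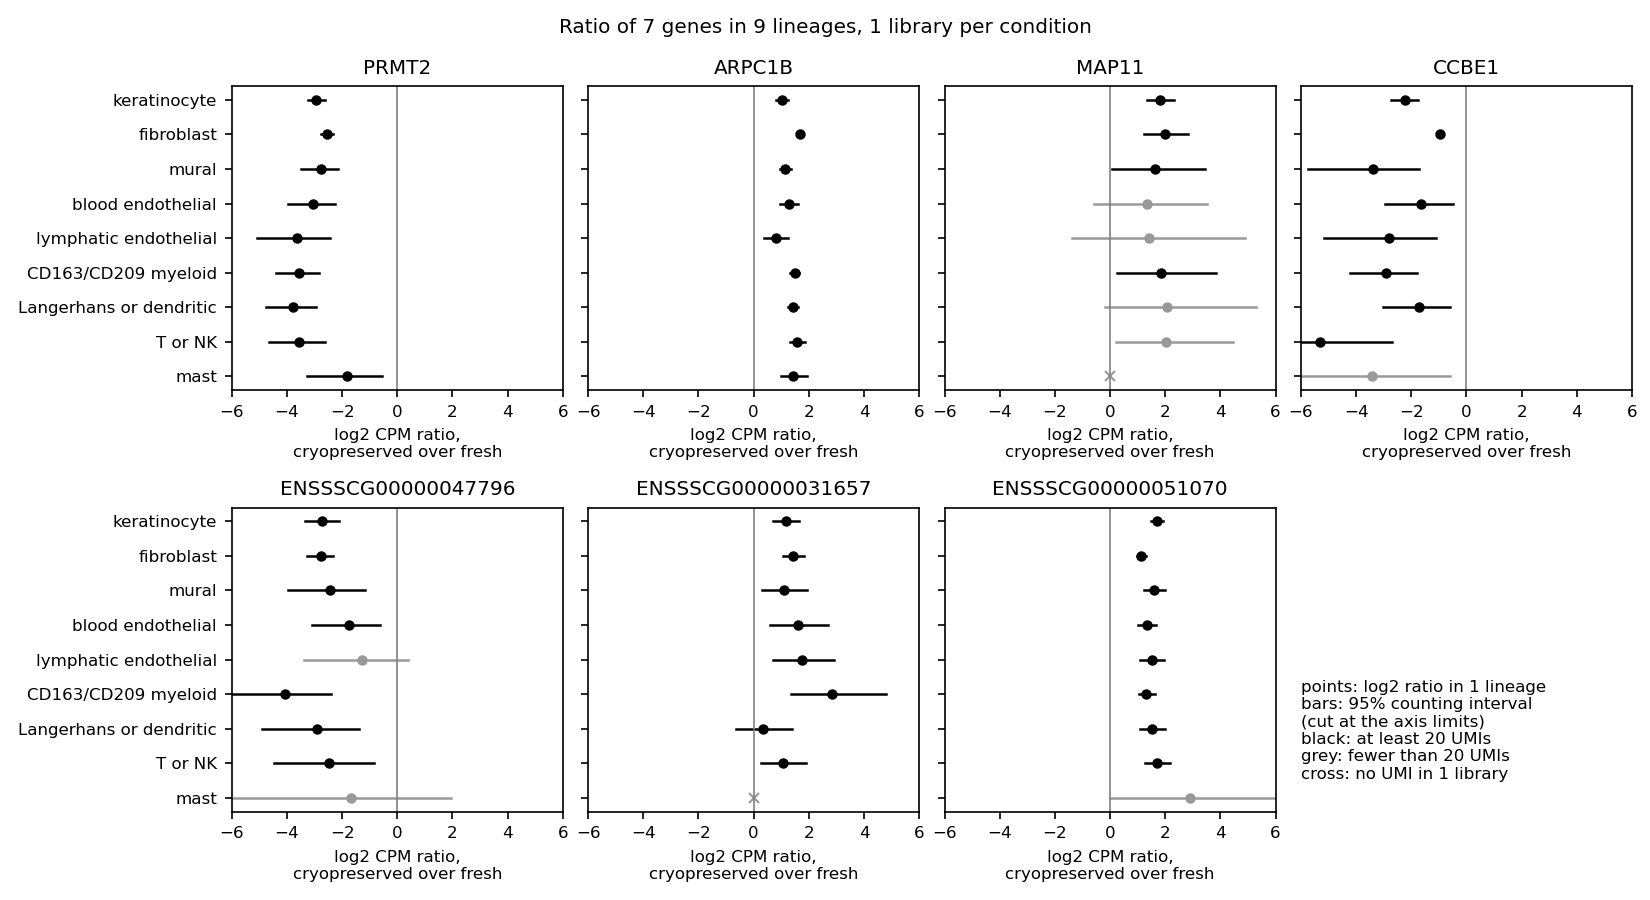
Log2 ratio of CPM, cryopreserved over fresh (x axis), of each of the 7 genes in 9 lineages (y axis), with 95% counting intervals that are cut at the axis limits. Black points had at least 20 UMIs and all lie on the side of 0 that selected the gene, while ENSSSCG00000031657 in Langerhans or dendritic cells is the only black point whose interval reaches 0.

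**Figure D2:**
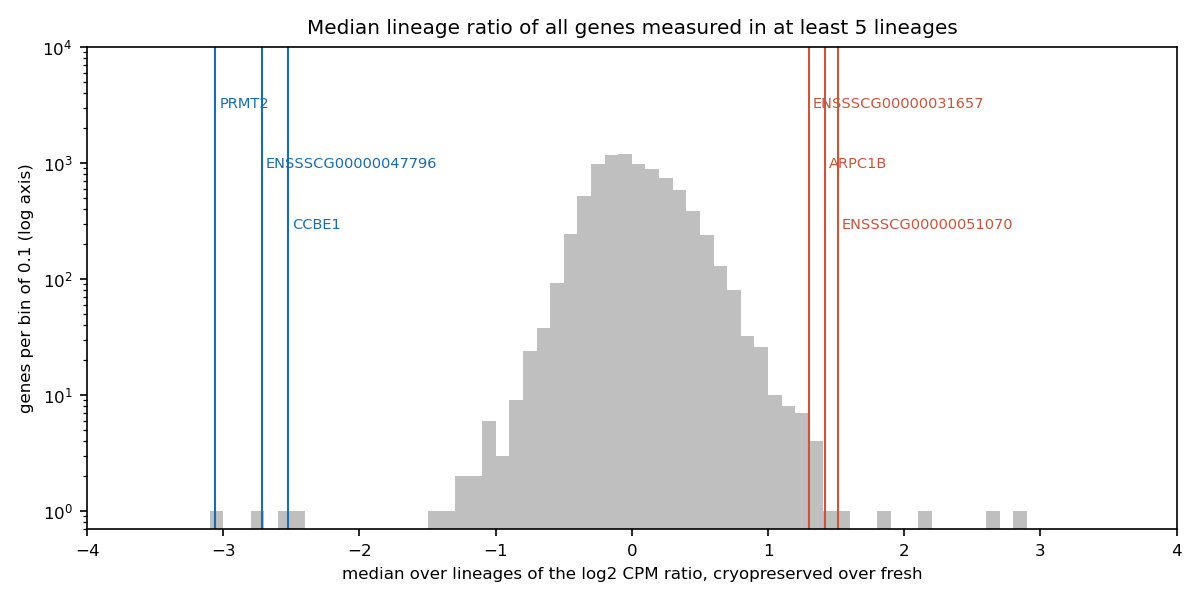
Number of genes (y axis, log scale) by the median over measured lineages of the log2 CPM ratio, cryopreserved over fresh (x axis), for 8450 genes measured in at least 5 lineages. Vertical lines mark 6 of the chosen genes, from PRMT2 at -3.06 to ENSSSCG00000051070 at 1.51, and MAP11 is absent because it was measured in 4 lineages.

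Positions were available for the 4 named genes, from the RefSeq annotation of Sscrofa11.1, the build of the deposited counts. ARPC1B lies on chr3:6329737-6342641 on the plus strand, with 10 exons in a transcript of 1759 bases. MAP11, listed there as C3H7orf43, lies on chr3:8158062-8162738 on the minus strand, with 11 exons. The distance between these higher genes was 1815421 bases, with 67 annotated genes between them. CCBE1 lies on chr1:161320627-161556539 on the plus strand, and 4709 of its 6712 transcript bases were 3′ untranslated. PRMT2 lies on an unplaced scaffold of 734522 bases with 16 genes, at positions 131967 to 162442 on the minus strand. The 3′ libraries count reads near transcript ends, so the last 500 bases of the longest RefSeq transcript of each gene were searched. For all 4 genes they matched no other place of the genome at 90% identity or more over at least 100 bases. The counts were made with the Ensembl annotation, whose transcript ends were not compared with these.

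The 200 bases before each annotated start are shown because genes that moved together were compared for shared promoter letters. They are printed 5′ to 3′ on the strand of the gene, from positions 162443 to 162642 of the unplaced scaffold (PRMT2, minus), chr3:6329537-6329736 (ARPC1B, plus), chr3:8162739-8162938 (MAP11, minus) and chr1:161320427-161320626 (CCBE1, plus). Capitals mark a GC box (GGGCGG, or CCGCCC on the opposite strand) or a CCAAT box (CCAAT, or ATTGG on the opposite strand). The TATA letters searched were TATAAA on both strands, and no motif overlapped another.
PRMT2: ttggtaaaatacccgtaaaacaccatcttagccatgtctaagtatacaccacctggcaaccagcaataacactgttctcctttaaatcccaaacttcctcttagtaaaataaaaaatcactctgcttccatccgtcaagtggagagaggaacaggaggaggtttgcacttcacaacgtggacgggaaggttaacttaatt
ARPC1B: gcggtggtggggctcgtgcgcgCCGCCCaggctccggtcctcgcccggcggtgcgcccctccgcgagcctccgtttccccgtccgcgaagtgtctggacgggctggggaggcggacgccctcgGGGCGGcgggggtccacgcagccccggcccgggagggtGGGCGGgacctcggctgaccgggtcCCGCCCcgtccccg
MAP11: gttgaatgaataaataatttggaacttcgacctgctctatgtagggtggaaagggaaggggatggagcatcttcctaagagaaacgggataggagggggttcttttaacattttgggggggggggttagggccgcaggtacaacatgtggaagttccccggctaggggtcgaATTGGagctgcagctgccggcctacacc
CCBE1: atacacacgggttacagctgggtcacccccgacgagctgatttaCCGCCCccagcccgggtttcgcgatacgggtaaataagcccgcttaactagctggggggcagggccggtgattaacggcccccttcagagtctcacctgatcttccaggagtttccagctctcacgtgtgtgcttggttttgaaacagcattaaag
ARPC1B held 4 GC boxes and CCBE1 held 1, and these genes moved in opposite directions. MAP11 held 1 CCAAT box, and none of the 3 motifs was found for PRMT2. Among 20665 promoters of this length, 42.4% held a GC box, 27.7% a CCAAT box and 8.22% the TATA letters. The GC share was 41.5% for PRMT2, 81.5% for ARPC1B, 52.5% for MAP11 and 56% for CCBE1, beside a median of 58.5%. No motif was shared by the lower genes PRMT2 and CCBE1, nor by the higher genes ARPC1B and MAP11.

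PRMT2 varied 1.60-fold over the lineages of the fresh library and was low in every lineage of the cryopreserved library. In fresh cells it was 76.5 CPM in fibroblasts, 79.8 in keratinocytes, 82.6 in mural cells, 85.0 in Langerhans or dendritic cells and 88.4 in T or NK cells. It was 90.0 CPM in mast cells, 93.4 in blood endothelial, 94.4 in CD163/CD209 myeloid and 122 in lymphatic endothelial cells. All neighbours in this order had overlapping counting intervals, but lymphatic endothelial cells (99.1 to 149) lay above fibroblasts (72.2 to 81.0), keratinocytes (73.7 to 86.4) and mural cells (70.4 to 96.4) beyond theirs. The coefficient of variation over the 9 lineages was 0.148, beside a median of 0.449 for 3258 genes measured in all 9 lineages, of which 0.614% had a lower value.

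In the cryopreserved library the PRMT2 level was 6.16 CPM in Langerhans or dendritic cells, 7.53 in T or NK, 7.91 in CD163/CD209 myeloid, 9.94 in lymphatic endothelial and 10.5 in keratinocytes. It was 11.2 CPM in blood endothelial, 12.1 in mural and 13.02 in fibroblast cells. Mast cells had the highest value, 25.6 CPM from 7 UMIs, with an interval of 10.3 to 52.8. No cryopreserved lineage reached the lowest fresh lineage. The log2 ratio was -2.55 in fibroblasts (-2.78 to -2.34), -2.78 in mural (-3.47 to -2.14) and -2.93 in keratinocytes (-3.23 to -2.64). It was -3.06 in blood endothelial, -3.55 in T or NK, -3.58 in CD163/CD209 myeloid, -3.62 in lymphatic endothelial and -3.79 in Langerhans or dendritic cells (-4.77 to -2.94). Mast cells had the smallest difference, -1.81, with a wide interval (-3.28 to -0.55), which overlapped that of Langerhans or dendritic cells. The fibroblast interval did not overlap those of Langerhans or dendritic and CD163/CD209 myeloid cells (-4.40 to -2.85 in the latter), and it overlapped those of the other lineages. All 21 measured clusters were lower, the unnamed ones included, with log2 ratios from -3.87 (an unnamed cluster with 20 and 1 UMIs) to -1.73. The 5 fibroblast clusters had PRMT2 log2 ratios from -3.56 to -2.40.

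The share of cells with a PRMT2 UMI was 57.9% in fresh and 8.998% in cryopreserved cells. In keratinocytes it was 66.4% of 530 cells and 9.74% of 1058 cells, and in fibroblasts 61.4% and 12.1%. In T or NK cells it was 44.1% and 3.94%. These shares were close to the share expected if every cell of a lineage had the same PRMT2 rate at its own depth, which was 66.2% and 9.96% for keratinocytes and 46.0% and 3.84% for T or NK cells. In the fresh library PRMT2 UMIs were thus spread over cells about as evenly as depth alone would spread them. The cryopreserved library held 417 PRMT2 UMIs in 380 of 4223 cells. At so few UMIs per cell an uneven spread would give a similar share, so evenness was not shown there. No cell of either library held more than 7. After every cell was thinned to 1000 UMIs, 8.11% of fresh and 1.15% of cryopreserved cells had a PRMT2 UMI. The difference in share was thus also present at equal depth. No lineage could be named as lacking PRMT2, so a background share from free RNA was not measured for it.

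**Figure D3:**
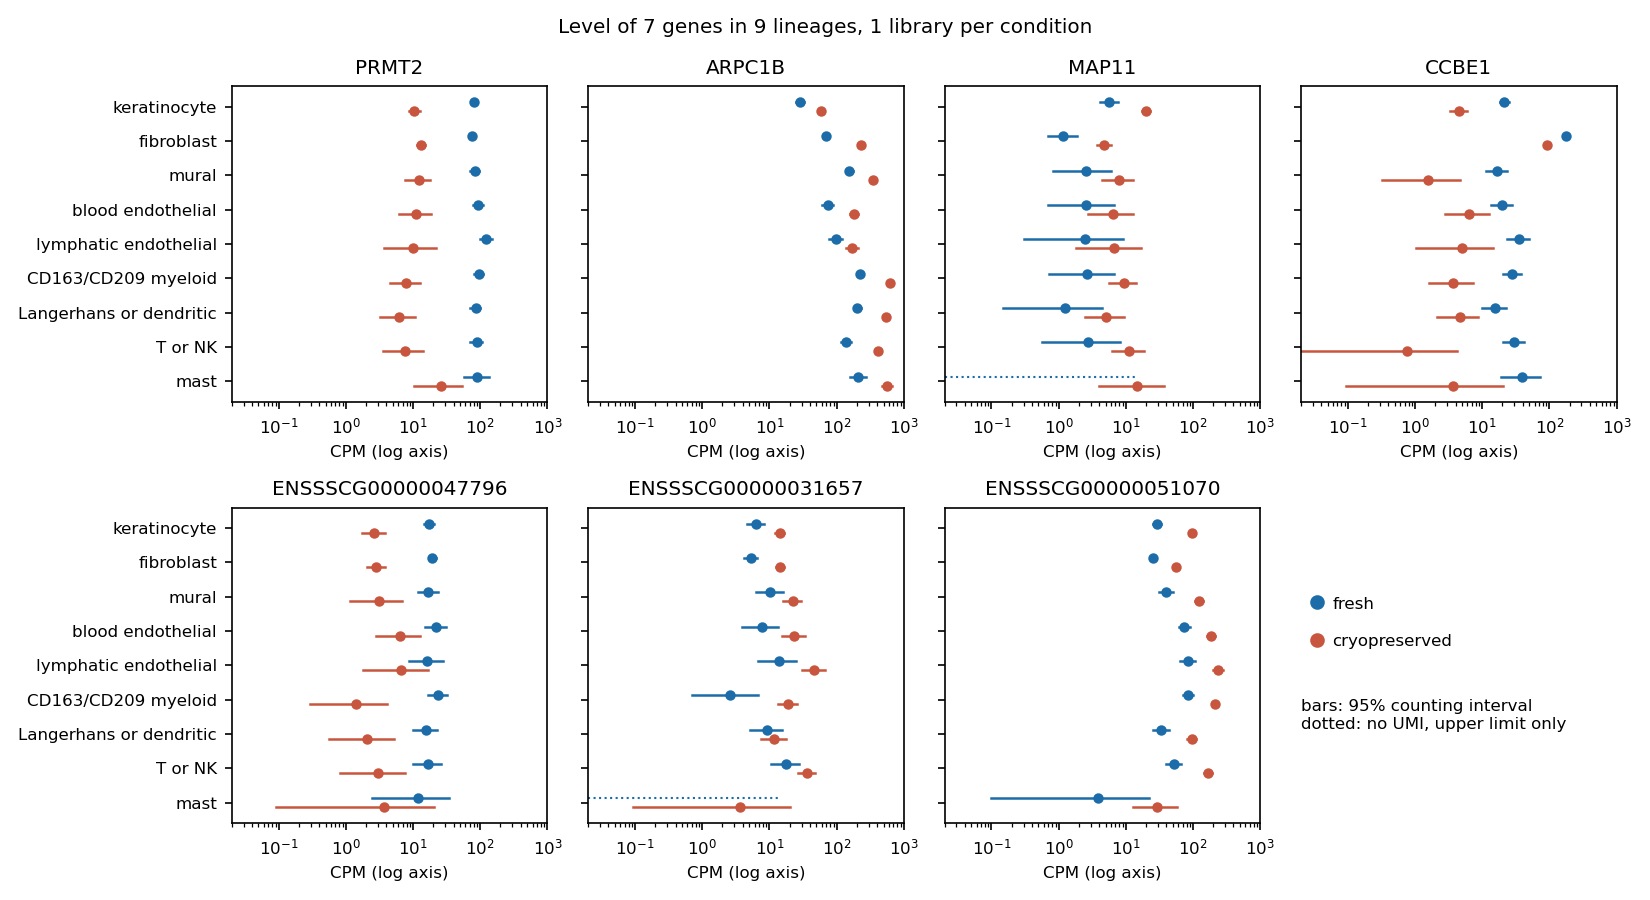
CPM (x axis, log scale) of each of the 7 genes in 9 lineages (y axis) of the fresh (blue) and cryopreserved (red) library, with 95% counting intervals and dotted lines as upper limits where no UMI was counted. PRMT2 lay between 76.5 and 122 CPM in fresh lineages and between 6.16 and 25.6 in cryopreserved ones, whereas CCBE1 in the cryopreserved library was 93.3 CPM in fibroblasts and at most 6.41 elsewhere.

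The other protein arginine methyltransferases did not share this shift. Of 8 listed enzymes, 7 had at least 50 UMIs, none was past 2-fold in either direction, 3 were below and 4 above 0, and their median log2 ratio was 0.05, beside 0.02 over 14443 genes of that depth. PRMT1, the main enzyme for asymmetric dimethylation, had 122 CPM fresh and 159 CPM cryopreserved (log2 ratio 0.38, interval 0.32 to 0.44). Over all 14443 genes, 152 were at least 2-fold lower and 257 higher.

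CCBE1 was highest in fibroblasts in both libraries. The fresh level was 179 CPM in fibroblasts (interval 173 to 186). It was 15.4 CPM in Langerhans or dendritic, 16.4 in mural, 19.8 in blood endothelial and 21.3 in keratinocyte cells. It was 28.0 CPM in CD163/CD209 myeloid, 29.5 in T or NK, 34.9 in lymphatic endothelial and 39.1 in mast cells, the last from 10 UMIs. Fibroblasts stood apart from the next lineage beyond their counting intervals, and no other neighbours in the order did.

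After cryopreservation CCBE1 was 93.3 CPM in fibroblasts, from 1425 UMIs. It was 6.41 CPM in blood endothelial, 4.97 in lymphatic endothelial, 4.62 in Langerhans or dendritic and 4.50 in keratinocyte cells. It was 3.72 CPM in CD163/CD209 myeloid, 3.66 in mast, 1.58 in mural and 0.753 in T or NK cells, where counts were 8, 1, 3 and 1 UMIs. The fold difference was thus smaller in the cells with the highest level than in the rest. The log2 ratio was -0.94 in fibroblasts (-1.04 to -0.85) and -2.41 over the other named lineages together (-2.78 to -2.06), from 365 and 81 UMIs. These intervals did not overlap. The libraries held fibroblast clusters in different shares, however, and with the fresh shares of UMIs applied to both libraries the fibroblast log2 ratio was -0.57, an alternative chosen after the data were seen. Single lineages ranged from -1.63 in blood endothelial cells (-2.96 to -0.48) through -2.24 in keratinocytes (-2.74 to -1.77) to -5.29 in T or NK cells, the last from 32 and 1 UMIs with an interval of -10.6 to -2.71. In blood endothelial cells 6 of the 8 cryopreserved UMIs lay in a single cell, and without the top cell of each library the log2 ratio was -3.53 (-6.65 to -1.55), from 29 and 2 UMIs. On the CPM scale the order was the reverse, with a difference of 86.0 CPM in fibroblasts and 10.8 to 35.5 CPM in the other lineages.

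Within fibroblasts, CCBE1 differed between clusters, which had been formed without the 7 genes, and it was among the 10 leading genes of the cluster headed by CCL19. That cluster had 569 CPM fresh and 452 CPM cryopreserved. Its log2 ratio of -0.33 (-0.48 to -0.19) was the nearest to 0 but for 1 fibroblast cluster. On the CPM scale its difference, 118 CPM, was the largest of the fibroblast clusters. The cluster led by WIF1 and NT5E had 237 and 152 CPM (log2 ratio -0.64, -0.79 to -0.48). The cluster with CTHRC1 had 82.0 and 36.5 CPM (-1.17, -1.48 to -0.86), and the one led by MYOC had 62.7 and 24.8 CPM (-1.34, -1.70 to -0.98). The cluster led by PTX3 had the lowest fresh level, 39.3 CPM, and 32.5 CPM cryopreserved, with an interval that included 0 (-0.27, -0.71 to 0.16). Fibroblast clusters with more CCBE1 had ratios nearer to 0, with the PTX3 cluster as the exception. Over all clusters, 15 of 15 measured were lower.

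The cells with a CCBE1 UMI showed the same split. In fibroblasts 60.7% of fresh and 34.6% of cryopreserved cells had a UMI, where an even rate would have given 84.8% and 57.9%. Up to 90 CCBE1 UMIs were counted in a fresh fibroblast and 21 in a cryopreserved one. In the other lineages 12.6% (mural) to 25.3% (keratinocyte) of fresh cells had a UMI, and 0.394% (T or NK) to 3.78% (Langerhans or dendritic) of cryopreserved cells. In fresh mural, blood endothelial, lymphatic endothelial and CD163/CD209 myeloid cells the share was close to that of an even rate, 12.6% against 12.1%, 14.4% against 13.9%, 23.4% against 22.4% and 23.7% against 23.6%. These lineages held 28 to 43 CCBE1 UMIs in 107 to 246 cells. At so few UMIs per cell an uneven spread would give a similar share, so evenness was not shown. In fresh T or NK cells the share was 15.2% against 19.3%, with 9 UMIs in a single cell. In cryopreserved blood endothelial cells it was 1.11% against 2.90%. The intervals of these 2 shares, 9.76% to 22.1% and 0.230% to 3.21%, included the even rate. In cryopreserved keratinocytes the share was 3.12% against 4.42%, and its interval of 2.16% to 4.35% lay below the even rate. A single cell held 7 of the 48 CCBE1 UMIs there. After thinning to 1000 UMIs, 7.93% of fresh and 3.75% of cryopreserved cells were positive.

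Free RNA can give UMIs in cells that do not express a gene, so the fibroblast markers were set beside CCBE1 in the same cells. The median over the 8 other lineages, as a share of the fibroblast level, was 13.7% for CCBE1 in the fresh library (range 8.59% to 21.8%). For the 9 fibroblast markers this median lay between 0.319% (COL1A1) and 0.697% (FBLN1). In the cryopreserved library it was 4.41% for CCBE1 and 0.474% to 1.09% for the markers. The quotient of the fresh and the cryopreserved median was 3.12 for CCBE1 and 0.350 to 0.903 for the markers. Single lineages varied more than these medians. Of 72 pairs of a marker and a lineage, 28 had a higher share in the fresh library, among them 8 of 9 markers in keratinocytes, 7 in Langerhans or dendritic and 7 in T or NK cells. The highest marker shares, 19.8% for COL6A1 in mural cells and 19.1% for FBLN1 in mast cells (11 UMIs) in the fresh library, were in the range of CCBE1. The 9 markers had also named the fibroblast clusters, so low marker shares elsewhere were favoured in advance. CCBE1 was used in neither the clustering nor the naming, so the markers and CCBE1 were not compared on equal terms. No profile of free RNA was measured, and its part in the CCBE1 values was not tested.

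**Figure D4:**
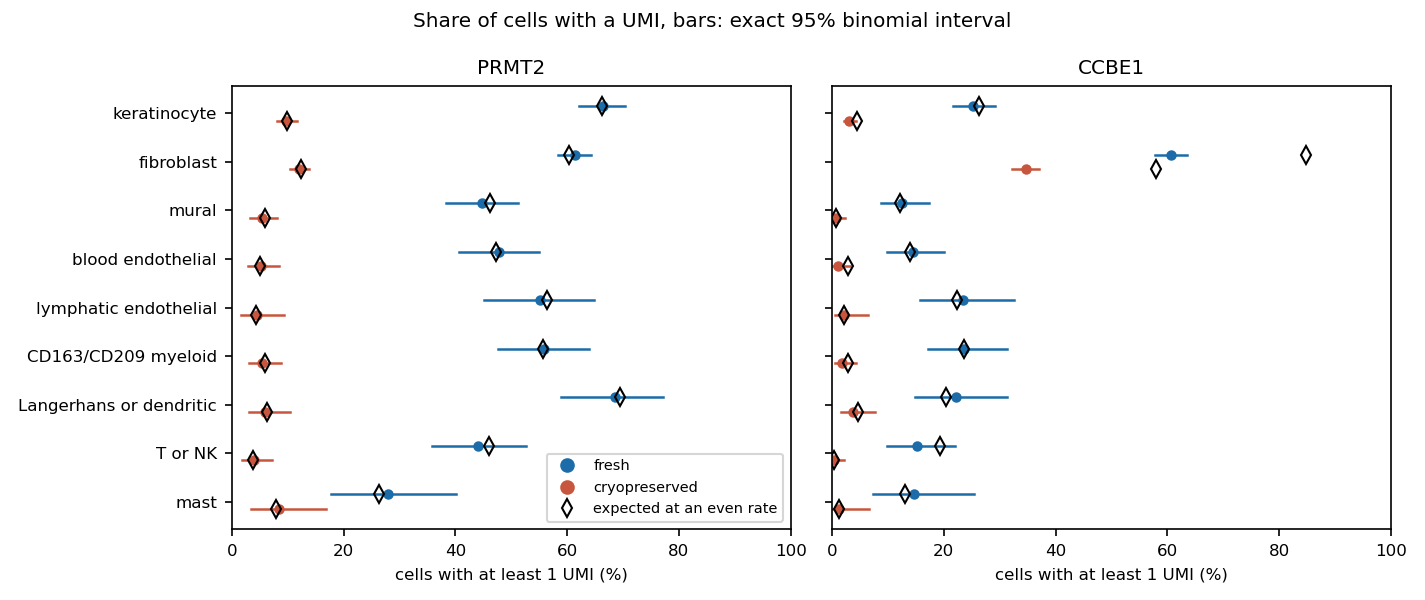
Share of cells with at least 1 UMI of PRMT2 or CCBE1 (x axis, percent) in 9 lineages (y axis) of the fresh (blue) and cryopreserved (red) library, with exact 95% binomial intervals, and diamonds for the share expected if all cells of a lineage had the same rate at their own depth. PRMT2 points lie on the diamonds, while CCBE1 in fibroblasts lies below them, at 60.7% against 84.8% in fresh cells.

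The partners of CCBE1 had smaller differences. Of 8 genes listed for VEGFC processing and lymphatic signalling, 7 were measured, all 7 were below 0 and none was past 2-fold, with a median log2 ratio of -0.44. Over all genes of that depth 6833 of 14443 were below 0, and the median was 0.02. Within lineages the directions of the list were mixed. VEGFC was lower in 1 lineage and higher in 2, and KDR lower in 2 and higher in 1. ADAMTS3 and PROX1 were each lower in 2 and higher in 2, and NRP2 lower in 4 and higher in 4. VEGFD and FLT4 were each lower in 0 lineages and higher in 1, and their whole-library intervals included 0. VEGFC itself had 27.7 and 19.4 CPM (-0.51, -0.66 to -0.37), and ADAMTS3, the protease that cleaves it, had 27.6 and 19.4 CPM (-0.51, -0.65 to -0.36). Several genes of this list are endothelial, and blood and lymphatic endothelial cells numbered 201 and 107 of 2775 fresh cells and 270 and 135 of 4223 cryopreserved cells. The part of this difference in cell shares in the values of the list was not tested.

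ARPC1B was highest in CD163/CD209 myeloid, mast and Langerhans or dendritic cells and was higher after cryopreservation in each lineage. Its fresh level was 28.6 CPM in keratinocytes, 70.5 in fibroblasts, 74.2 in blood endothelial, 97.1 in lymphatic endothelial and 137 in T or NK cells. It was 154 CPM in mural, 204 in Langerhans or dendritic, 207 in mast and 223 in CD163/CD209 myeloid cells. Keratinocytes lay below fibroblasts, and mural cells below Langerhans or dendritic cells, beyond the counting intervals, while the other neighbours overlapped.

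In the cryopreserved library ARPC1B was 58.0 CPM in keratinocytes, 169 in lymphatic endothelial, 181 in blood endothelial, 227 in fibroblast and 342 in mural cells. It was 413 CPM in T or NK, 545 in Langerhans or dendritic, 564 in mast and 624 in CD163/CD209 myeloid cells. The order of lineages was thus nearly kept, with T or NK cells now above mural cells, fibroblasts above both endothelial lineages and blood above lymphatic endothelial cells. Pearson's r between the fresh and cryopreserved levels over the 9 lineages was 0.97 for ARPC1B and 0.82 for CCBE1, but -0.08 for PRMT2, whose fresh levels varied little. The CCBE1 value was set largely by fibroblasts, at 179 and 93.3 CPM, far above the other lineages. Among those, CCBE1 in mast cells had rank 2 fresh and 7 cryopreserved, and in blood endothelial cells 7 and 2. Lymphatic endothelial and mural cells kept ranks 3 and 8. The log2 ratio of ARPC1B was 0.80 in lymphatic endothelial cells (0.36 to 1.24), 1.02 in keratinocytes (0.79 to 1.25) and 1.15 in mural cells. It was 1.29 in blood endothelial, 1.42 in Langerhans or dendritic, 1.44 in mast, 1.49 in CD163/CD209 myeloid and 1.59 in T or NK cells. Fibroblasts had the largest ratio, 1.69 (1.59 to 1.79), whose interval lay above those of lymphatic endothelial, keratinocyte and mural cells. Fibroblast clusters ranged from 1.27 (led by CCL19) to 1.75 (led by PTX3). The PTX3 cluster held 13.6% of fresh and 20.9% of cryopreserved fibroblast UMIs, and the part of this mix in the fibroblast ratio was not tested. All 23 measured clusters were higher, with log2 ratios from 0.80 to 2.40.

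ARPC1B was detected in 51.4% of fresh and 64.2% of cryopreserved cells. In CD163/CD209 myeloid cells the share was 74.3% and 86.1%, and in keratinocytes 33.0% and 39.6%. Lymphatic endothelial cells went the other way, 54.2% of 107 and 44.4% of 135 cells, at medians of 6699 and 3780 UMIs per cell. Thinned to 1000 UMIs, that share was 8.41% (9 of 107 cells, 3.92% to 15.4%) and 11.2% (15 of 134, 6.40% to 17.8%), with overlapping intervals. Thinned shares over all cells were 8.41% and 18.2%.

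Other subunits of the Arp2/3 complex had smaller ratios. Of 9 listed, 8 were measured, all 8 were above 0, none was past 2-fold, and the median log2 ratio was 0.24. Over all genes of that depth 7610 of 14443 were above 0, and the median was 0.02. The intervals of ACTR2 (-0.06 to 0.08) and ACTR3 (-0.02 to 0.07) included 0. By lineage, ACTR2 was lower in 6 and higher in 3, ACTR3 lower in 7 and higher in 2. ARPC2 was lower in 5 and higher in 4, and ARPC5 lower in 4 and higher in 5. ARPC3 was higher in 7 and lower in 2, ARPC5L higher in 8 and lower in 1, and ARPC4 higher in 9. ARPC1A, the paralog that takes the place of ARPC1B in the complex, had 158 and 323 UMIs and a log2 ratio of 0.89 (0.61 to 1.17), the largest of the list, and was higher in 4 of 4 lineages. It also lies 5211 bases from ARPC1B, the nearest gene that does not overlap it.

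MAP11 was sparse, with 82 and 363 UMIs in all. The fresh level was highest in keratinocytes, 5.70 CPM from 44 UMIs, and 1.17 CPM in fibroblasts from 18 UMIs. The other lineages held 0 to 5 fresh UMIs each, and mast cells held 0, which allows up to 11.7 CPM at 3 counts. In the cryopreserved library keratinocytes had 19.9 CPM from 212 UMIs, fibroblasts 4.71, mural cells 7.88 and CD163/CD209 myeloid cells 9.31. In the 4 measured lineages the log2 ratio was 1.80 in keratinocytes (1.33 to 2.30), 2.004 in fibroblasts (1.24 to 2.84), 1.62 in mural (0.08 to 3.43) and 1.84 in CD163/CD209 myeloid cells (0.26 to 3.85). These intervals all overlapped. Cells with a MAP11 UMI were 7.74% of fresh and 17.4% of cryopreserved keratinocytes, and 1.58% and 4.67% of fibroblasts, at depths that were lower in the cryopreserved cells. Of 14 listed TRAPP subunits 13 were measured, none was past 2-fold, 8 were above and 5 below 0, and the median log2 ratio was 0.12. Of all 14443 genes with at least 50 UMIs, 7610 were above 0, 152 were at least 2-fold lower and 257 higher. Their median was 0.02.

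ENSSSCG00000047796 resembled PRMT2 in that its level varied little over fresh lineages and was low in all cryopreserved ones. Its fresh level lay between 11.7 CPM (mast, 3 UMIs) and 23.4 CPM (CD163/CD209 myeloid), with 17.2 in keratinocytes and 19.3 in fibroblasts. Its cryopreserved level lay between 1.40 CPM (CD163/CD209 myeloid, 3 UMIs) and 6.63 CPM (lymphatic endothelial, 4 UMIs), with 2.62 in keratinocytes and 2.81 in fibroblasts. The ranges did not overlap. The log2 ratio was -2.72 in keratinocytes (-3.36 to -2.12) and -2.78 in fibroblasts (-3.28 to -2.31). The other measured lineages lay between -4.07 and -1.76 with overlapping intervals. The share of cells with a UMI was 18.8% and 2.42%, and the coefficient of variation of the fresh level was 0.198. In barcodes over the mitochondrial maximum, 1004 fresh and 446 cryopreserved, its level was 143 and 10.0 CPM, above that in the retained cells in both libraries.

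ENSSSCG00000051070 was higher by at least 2-fold in each measured lineage. Its fresh level was 25.4 CPM in fibroblasts, 29.2 in keratinocytes, 33.3 in Langerhans or dendritic, 40.0 in mural and 51.5 in T or NK cells. It was 74.2 CPM in blood endothelial, 83.4 in lymphatic endothelial and 84.6 in CD163/CD209 myeloid cells. The cryopreserved levels were 55.8 CPM in fibroblasts, 94.9 in keratinocytes, 95.04 in Langerhans or dendritic, 122 in mural and 169 in T or NK cells. They were 187 CPM in blood endothelial, 237 in lymphatic endothelial and 211 in CD163/CD209 myeloid cells. The log2 ratio ran from 1.13 in fibroblasts (0.96 to 1.31) to 1.70 in keratinocytes (1.49 to 1.92) and 1.71 in T or NK cells (1.28 to 2.16). The fibroblast and keratinocyte intervals did not overlap. The share of cells with a UMI was 28.9% and 44.8%, and 4.26% and 10.8% after thinning. Mast cells, with 1 and 8 UMIs, were below the minimum.

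ENSSSCG00000031657 had the widest range of lineage ratios among the higher genes, but from sparse counts. Its fresh level lay between 2.60 CPM in CD163/CD209 myeloid cells (4 UMIs) and 17.5 CPM in T or NK cells, with 0 UMIs in mast cells, and its cryopreserved level between 3.66 CPM in mast cells (1 UMI) and 46.4 CPM in lymphatic endothelial cells. The log2 ratio was 1.17 in keratinocytes (0.69 to 1.66) and 1.43 in fibroblasts (1.06 to 1.82). It was 2.84 in CD163/CD209 myeloid cells (1.37 to 4.78) and 0.35 in Langerhans or dendritic cells, where the interval of -0.65 to 1.40 included 0. Those intervals overlapped narrowly, the higher one from 4 and 40 UMIs, whereas the intervals of the lowest and highest lineage of ARPC1B did not overlap. In Langerhans or dendritic cells the share with a UMI was 12.96% fresh and 10.3% cryopreserved, against the direction of the CPM, at medians of 14625 and 9366 UMIs per cell. Over all cells it was 7.39% and 12.3%.

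The annotated neighbours of the 4 positioned genes did not follow them to the same extent. Within 1000000 bases, none of 5 measured genes near PRMT2, 21 near ARPC1B or 8 near CCBE1 was past 2-fold in either direction. The PRMT2 window was cut on both sides by the ends of its scaffold of 734522 bases, and all 5 genes lay at higher coordinates. The nearest measured gene to PRMT2 was DIP2A, at a log2 ratio of 0.30. Near ARPC1B, its paralog ARPC1A, 5211 bases away, had 0.89, the largest ratio of that window. BUD31 had 0.42, PTCD1 0.67 and CPSF4 0.27, and PDAP1, which overlaps ARPC1B on the opposite strand, had 0.24. Near CCBE1, PMAIP1 had 0.20, LMAN1 -0.07 and CPLX4 -0.67. Near MAP11, 2 of 43 genes were past 2-fold, LRCH4 at 1.69 from 14 and 50 UMIs and FIS1 at 1.03 from 23 and 52 UMIs, both named after their values were seen. Over all genes with at least 50 UMIs, 257 of 14443 were at least 2-fold higher and 7610 were above 0. Above 0 were 4 of 5 genes near PRMT2, 12 of 21 near ARPC1B, 32 of 43 near MAP11 and 2 of 8 near CCBE1. The median log2 ratios of these windows were 0.21, 0.09, 0.23 and -0.08, beside 0.02 over all genes of that depth. GAL3ST4, 171 bases from MAP11, had 0.15 and STAG3 -0.28. GPC2 had -0.15 from 22 and 22 UMIs, below the minimum of 50. LAMTOR4, which overlaps MAP11 on the opposite strand, had 0.25 from 2021 and 2660 UMIs. S100B, next to PRMT2 on the scaffold, was not matched by identifier, MC4R had 0 UMIs and RAX 1.

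**Figure D5:**
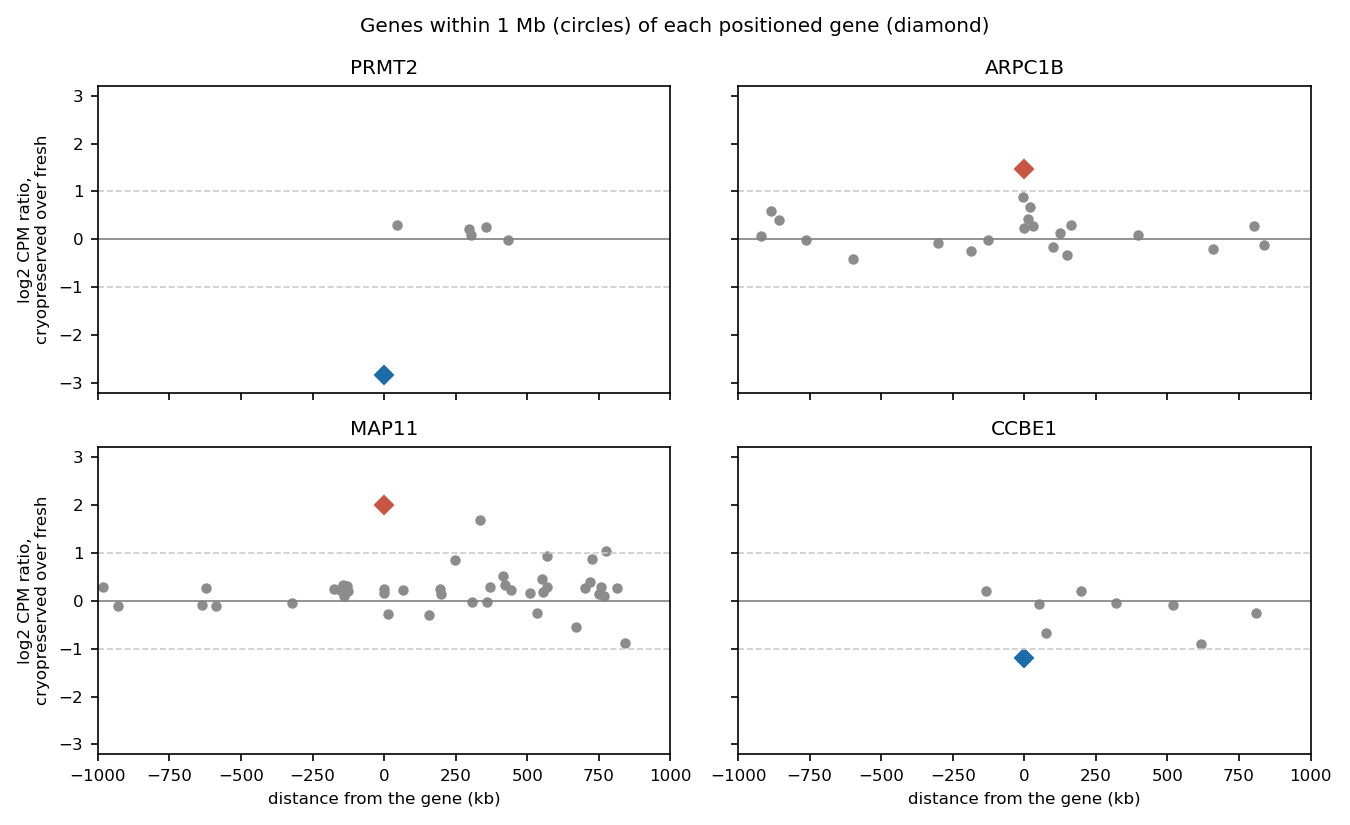
Whole-library log2 CPM ratio, cryopreserved over fresh (y axis), of measured genes within 1000 kb (circles) against their distance from PRMT2, ARPC1B, MAP11 or CCBE1 (diamonds, x axis in kb), with dashed lines at 2-fold. Circles near PRMT2, ARPC1B and CCBE1 stay within the dashed lines, and 2 near MAP11 lie above them. The scaffold of PRMT2 ends inside this distance on both sides.

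Outside the 7 genes, the lowest median lineage ratios among genes with a single direction belonged to ND3, a subunit of respiratory complex I encoded by the mitochondrial genome (median log2 ratio -2.46, range -2.66 to -2.02 over 9 lineages), and to ENSSSCG00000044813 (-1.43), ENSSSCG00000000207 (-1.30), SMPDL3B (-1.20) and ZNF830 (-1.08). The highest belonged to LMO1 (2.84, with no UMI in a library in 3 of 7 lineages, set to 3 counts there), CLDN5 (2.65 in 5 lineages, but -0.34 in the whole libraries), SERF2 (1.36), the keratinocyte chemokine CCL27 (1.34) and ND4L (1.30). ND4L is also a mitochondrial complex I subunit, so genes of this complex stood at both ends. PRMT2, ENSSSCG00000047796 and CCBE1 lay below ND3, with medians of -3.06, -2.72 and -2.53. In the whole libraries, however, CCBE1 was at -1.19 and ND3 at -2.33. Measured lineages of CCBE1 other than fibroblasts and keratinocytes held at most 9 cryopreserved UMIs each. ENSSSCG00000051070 (1.51) and ARPC1B (1.42) lay between CLDN5 and SERF2, and ENSSSCG00000031657 (1.299) lay just below ND4L.

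Genes whose fresh levels over the 9 lineages were most like those of the chosen genes did not share the size of their ratio. For ARPC1B they were PTPRJ, PTPN9 and PRKAB2 (Pearson's r of log2 levels 0.95, 0.94 and 0.93), with whole-library log2 ratios of -0.04, -0.19 and -0.03. For CCBE1 they were C1QTNF3, MYOC and PRADC1 (r 0.93, 0.93 and 0.92), with ratios of -0.32, 0.47 and 0.08. For PRMT2 they were ENSSSCG00000045670, ENSSSCG00000021941 and SKA3 (r 0.95, 0.95 and 0.89), with ratios of -0.50, -0.28 and -0.04. In the cryopreserved library the r of the same genes with PRMT2 was -0.61, -0.21 and 0.12, and the fresh PRMT2 profile varied little. For ENSSSCG00000047796 they were ENSSSCG00000012627, EEPD1 and AMMECR1, with ratios of -0.34, -0.0046 and -0.48. For MAP11 they were HARS1, ENSSSCG00000013471 and VIRMA, for ENSSSCG00000031657 RBM6, SKP2 and RNMT, and for ENSSSCG00000051070 LANCL2, ATG2A and HK3. The ratios of these lay between -0.37 and 0.21. MAP11 had 0 to 5 fresh UMIs in each lineage but keratinocytes and fibroblasts, so its likeness rested on sparse counts. Neighbouring fresh lineages of MAP11, ENSSSCG00000047796 and ENSSSCG00000031657 all had overlapping counting intervals. The 9 points of each profile share a library, and no p-value was computed.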

How the data were processed

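Single-cell RNA of pig skin was counted in 1 fresh and 1 cryopreserved 10x Genomics 3′ library. The deposited values were raw UMI counts per gene and barcode, which the authors made with Cell Ranger 4.0.0 and STAR 2.5.1b against Sscrofa11.1 and its Ensembl annotation (versions from the submitters' processing notes). The files held 53271738 fresh and 42217632 cryopreserved UMIs, of which 32274985 and 36687009 were in retained cells.

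Cells were kept up to the study's maxima of 4500 genes, 30000 UMIs and 10% mitochondrial UMIs. The methods removed doublets by scatter gates and these maxima, and no doublet caller was run. Both libraries were integrated with Seurat 5.3.0 (R 4.3.3; 2000 features without the 7 genes, 30 dimensions, resolution 0.8), and a cluster was named when at least 3 markers of a list were in 10% of its cells and raised 2-fold. The basal and differentiated keratinocyte lists were joined into 1 lineage after the clusters were seen. UMIs were summed per library and lineage and scaled with TMM factors, checked against edgeR 4.0.16. Intervals were exact Poisson (levels), conditional binomial (ratios) and exact binomial (shares), at 95%, and cover counting error only (SciPy 1.17.1). The ratio step was tested on simulated data. Promoters and transcript ends were read from the RefSeq Sscrofa11.1 genome (blastn 2.17.0).

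The chosen genes, the gene lists and the marker lists were set with earlier results of these data known. Genes named were the 7, list members past 2-fold plus ARPC1A, PRMT1, ADAMTS3 and VEGFC, the 3 nearest annotated genes on each side, the 3 genes with the most alike fresh profile (log2 of CPM + 1), and the 5 lowest and 5 highest other genes with a single direction. No test was run with 1 library per condition. Alternatives covered the scaling, the cell maxima, the clustering, the UMI minimum, thinning and the lineage mix. ACTR3B and TRAPPC1 were not matched, and PRMT8 and ADAMTS14 had under 50 UMIs.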

Additional observations from a re-analysis of the deposited data

How the results depend on the processing

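Of 56 recomputed whole-library ratios, 50 stayed within the counting interval, 6 moved outside it and 0 reversed. With all barcodes ARPC1B was 1.54 on the log2 scale, and with every cell thinned to 1000 UMIs it was 1.35 and CCBE1 was -1.05. With fresh lineage shares applied to both libraries CCBE1 was -1.06. With no mitochondrial limit ENSSSCG00000047796 was -3.07 and ENSSSCG00000051070 was 1.31. Of 42 recomputed counts of lineages in the stated direction, 38 were within 1.5 times the main count. A minimum of 50 UMIs left 3 lineages for CCBE1, 4 for ENSSSCG00000031657, 2 for ENSSSCG00000047796 and 2 for MAP11, because fewer lineages reach it, and 0 of the alternatives had a measured lineage against the direction. No paired analysis was possible because each condition had 1 library with no replicate number. Library and condition cannot be told apart, and MAP11 is limited by counts of 0 to 5 UMIs in all fresh lineages but keratinocytes and fibroblasts. An alternative added after the data were seen, the fresh shares of fibroblast clusters applied to both libraries, gave a CCBE1 log2 ratio of -0.57 in fibroblasts.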

Other observations

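In the barcodes outside the maxima, 1604 fresh and 637 cryopreserved, which were left out of the lineages, the 7 genes had the same directions. PRMT2 had 83.3 and 10.6 CPM in them, CCBE1 75.8 and 23.5, ARPC1B 66.4 and 171, and MAP11 3.02 and 13.2. ENSSSCG00000047796 had 29.4 and 4.34 CPM, ENSSSCG00000031657 6.39 and 19.3, and ENSSSCG00000051070 35.6 and 104.6. In the part of these barcodes that was over the mitochondrial maximum, PRMT2 had 171 fresh and 2 cryopreserved UMIs, and ENSSSCG00000051070 had 140.3 and 312 CPM. ENSSSCG00000031657 had 28.4 and 39.1 CPM there, with a log2 ratio of 0.46 whose interval (-0.16 to 1.07) included 0. In the unnamed clusters PRMT2 had 73 and 17 UMIs (log2 ratio -2.15), ARPC1B 42 and 135 (1.64), and CCBE1 83 and 40 (-1.10). ENSSSCG00000047796 had 13 and 3 UMIs there (-2.16), ENSSSCG00000051070 23 and 102 (2.10), and MAP11 0 and 3. ENSSSCG00000031657 had 9 and 15 UMIs (0.69), with an interval of -0.60 to 2.06 that included 0.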
